A study of Mus musculus with 40 samples.

Results

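Circulating microRNAs in total blood were compared between mice of 16.5 and of 15 months, the last 2 of 4 ages at which small RNA libraries were made. The comparison used 20 of the 40 libraries, 10 per age, and these were taken by the age given in the labels. Of the 1915 microRNA rows, 103 had more than 100 reads in at least 20 of the 40 libraries, with the equal rows of miR-486a and miR-486b entered once. miR-374b-5p likewise had the same counts as miR-374c-5p in every library, so that 102 of the 103 were distinct. The question the comparison addresses is which blood microRNAs change over the last interval of an ageing course in which memory was tested repeatedly.

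All mice were single-housed male wild-type C57B/6J animals from a commercial breeder, with no transgene and no drug. Blood was drawn under isoflurane from the retro-orbital sinus, alternating the eye, the day after the probe test of a water maze round. The 15-month blood followed 1 more such round than the 13.5-month blood, and the 16.5-month blood 1 more again, so that age and experience of the maze cannot be told apart. The study also kept mice in their home cage, and the labels do not say whether any library came from them. The study bled the same mice repeatedly, and the column names start with a number that recurs at both ages, but no source says that this number names the animal. The libraries were therefore tested as separate samples, and the calls that are lost when the number is fitted as a block are named beside their values. The column names end in a letter with a number at 13.5 and 15 months and in a letter alone at 12 and 16.5 months, so that library series and age cannot be told apart in any result here.

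MicroRNAs are short single-stranded RNAs cut from a hairpin precursor, which has a 5p and a 3p arm, and they lower the output of messenger RNAs that they pair with. Pairing rests mainly on the seed, bases 2 to 8 from the 5′ end, so that microRNAs with the same seed share many predicted targets. In whole blood most microRNA comes from red cells, in which miR-486-5p and miR-451a are abundant, and smaller amounts come from leukocytes and platelets or from tissues that release RNA into plasma.

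A selection of the microRNAs described below is printed here, with the seed in capitals and 5′ to 3′. It is not a ranking by firmness, since let-7d-3p was not called and miR-532-5p had no sequence entry. The mature sequences and hairpin positions are from RefSeq (GRCm38.p6, the assembly that mm10 names), and 90 of the 103 tested microRNAs matched an entry.
miR-3969: cCCUAAAGuagaaaucacua
miR-374b-5p: aUAUAAUAcaaccugcuaagug
miR-374c-5p: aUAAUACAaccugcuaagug
let-7d-5p: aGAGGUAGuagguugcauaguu
let-7d-3p: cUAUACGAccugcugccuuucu
miR-146a-5p: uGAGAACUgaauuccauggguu
miR-146b-5p: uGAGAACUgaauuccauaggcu
miR-148a-3p: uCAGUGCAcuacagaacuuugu
miR-148b-3p: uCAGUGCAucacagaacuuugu
miR-140-3p: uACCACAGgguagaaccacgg
miR-192-5p: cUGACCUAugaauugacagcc
miR-191-5p: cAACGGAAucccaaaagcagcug

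The 20 bases of miR-374c-5p are contained in the 22 bases of miR-374b-5p, which has 2 more bases at the 5′ end, so that their seeds differ although nearly all letters are shared. Reads of the 2 could not be told apart in the deposited rows, which held the same count in every library. miR-146a-5p and miR-146b-5p share a seed and differ at 2 of 22 positions, and miR-148a-3p and miR-148b-3p likewise share a seed and differ at 2 of 22.

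At 16.5 months 29 of the 103 microRNAs differed from 15 months (28.2%, edgeR quasi-likelihood test, Benjamini-Hochberg adjusted p under 0.05). Of these, 14 were higher (13.6%) and 15 lower (14.6%). Counting equal rows once, 26 of 102 were called, 13 in each direction. The rises were led by miR-3969, miR-146a-5p, miR-374b-5p with miR-374c-5p, let-7d-5p and miR-146b-5p, and the falls by miR-532-5p, miR-148b-3p, miR-140-3p, miR-192-5p and miR-148a-3p. Of the 14 rises, 4 (miR-3969, miR-374b-5p, miR-374c-5p and miR-181b-5p) had no 15-month library over 100 reads and passed the filter only through other ages, so that their place in these counts is no support for a rise. Fitted with no filter on reads, these 4 were called as well (edgeR). Most changes were small. The absolute log2 fold change was under 1 for 12 of the 14 rises and 13 of the 15 falls, with medians of 0.61 and -0.51.

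Directions depend on how libraries are scaled. Levels are given as CPM, counts scaled to a common library size with a TMM factor that takes most microRNAs as unchanged, and the median log2 fold change of the 103 was then -0.03. Scaled by library totals alone, the median was 0.60, 45 microRNAs were higher (43.7%) and 1 was lower (0.971%), which was miR-486a-5p. All 14 rises kept their direction and their call with library totals, where they lay between 0.90 and 6.37. Since this scaling moved the median of all 103 from -0.03 to 0.60, keeping a rise under it is no added support. Of the 15 falls, 9 turned positive with library totals, with values between -0.51 and 0.37, and their smallest adjusted p was 0.228 (edgeR). The falls are therefore falls relative to the other microRNAs, by TMM factors.

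**Figure D1:**
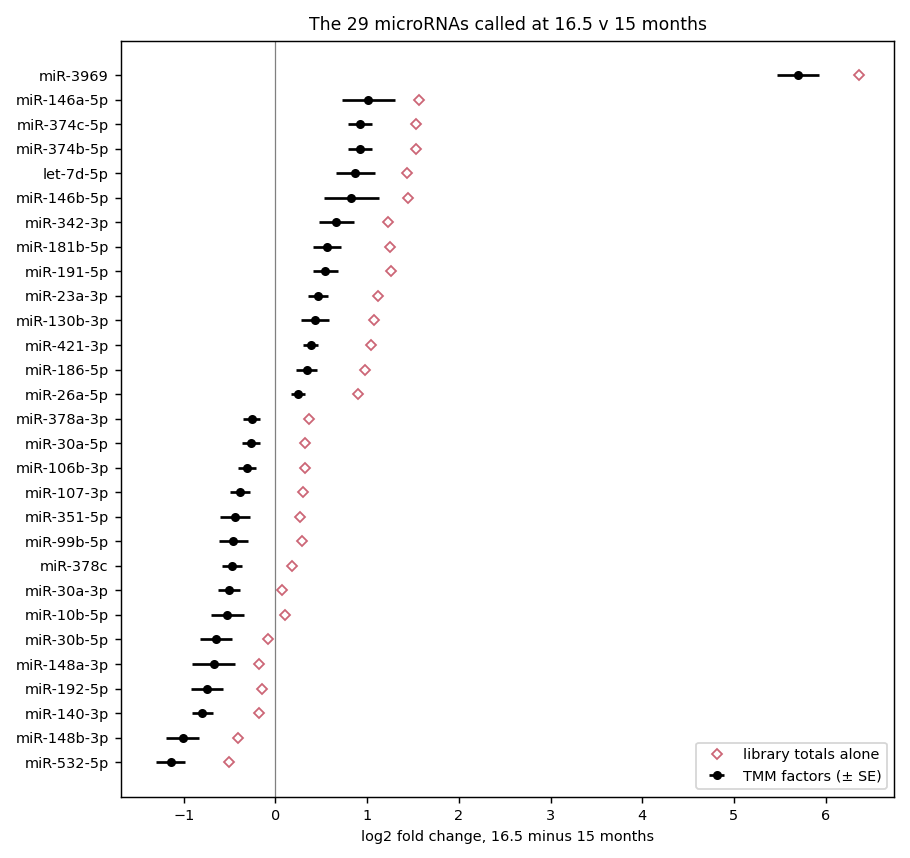
The log2 fold change at 16.5 minus 15 months (horizontal axis) of the 29 called microRNAs (rows), with TMM factors (black points, bars give the SE) and with library totals alone (open diamonds). The 14 rises stay to the right of 0 under both scalings, whereas 9 of the 15 falls cross to the right of 0 with library totals. Library totals also move the median of all 103 microRNAs to the right, from -0.03 to 0.60.

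The share of the sequenced microRNA that was not miR-486 differed between the ages, and this measure does not depend on TMM. miR-486a-5p, the red-cell microRNA from the Ank1 locus, made up 92.1% ± 2.23 of counts at 15 months and 87.7% ± 3.76 at 16.5 months (SD, n = 10 each). Counts outside miR-486 were 3.48% in the lowest, 8.54% in the median and 11.0% in the highest library at 15 months. At 16.5 months they were 6.49%, 13.7% and 17.5%. The groups overlapped, since 4 of the libraries at 16.5 months lay within the 15-month range. The mean was 7.93% ± 2.24 at 15 months and 12.2% ± 3.78 at 16.5 months (SD, n = 10 each), a difference of 4.32 percentage points (two-sided permutation test, 100000 resamples, p = 0.00695). The lowest library had 8.77% at 12 months and 9.52% at 13.5 months, so every library of these ages was above the 15-month median. The 16.5-month median lay within the range of 12 months and within that of 13.5 months, 9.52% to 19.1%. The difference therefore starts from a low share at 15 months, and a rise over the whole ageing course was not tested. The TMM-scaled change of miR-486a-5p itself was -0.68 log2 (SE 0.34) and was not called (adjusted p = 0.139, edgeR).

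Library totals, with miR-486 once, ran from 2622472 to 4723706 counts at 15 months and from 1281099 to 7975044 at 16.5 months. Counts outside miR-486, on which nearly all microRNAs rest, ran from 114748 to 412457 and from 93002 to 1187944. Library 7 of 16.5 months was the shallowest and stood apart from the rest, with a connectivity Z-score of -3.31. Without it 28 microRNAs were called, 13 higher and 15 lower.

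**Figure D2:**
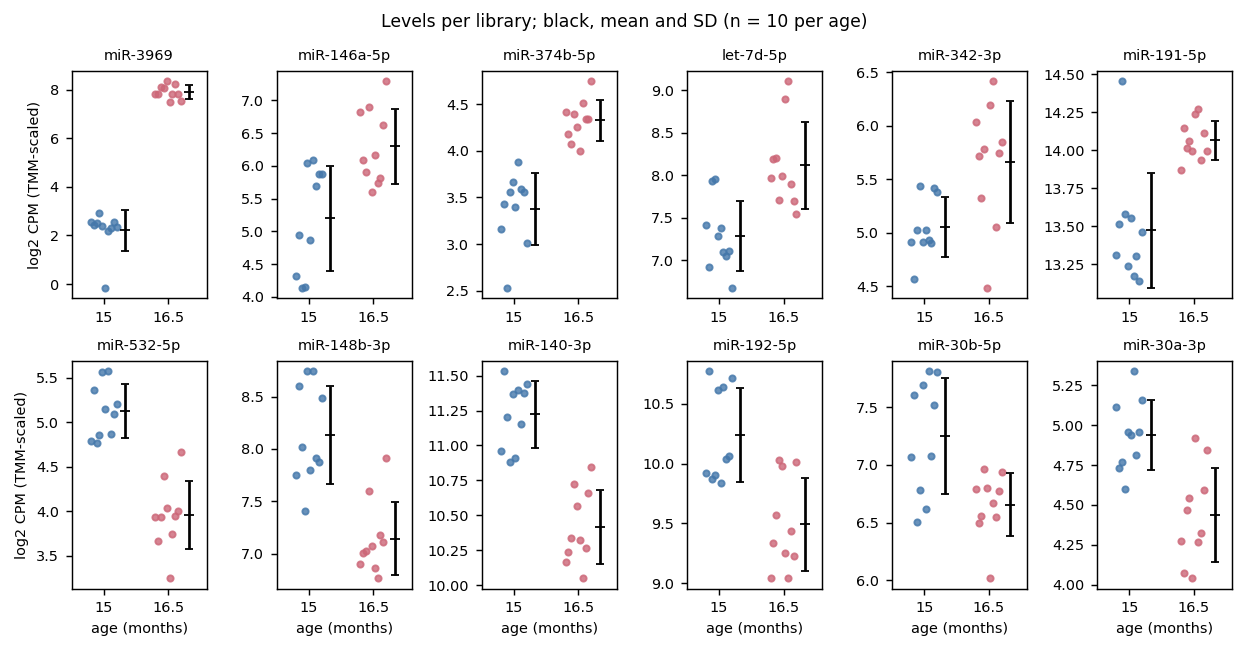
Level of 12 microRNAs in each library, as TMM-scaled log2 CPM (vertical axis, a separate scale per panel), at 15 and 16.5 months. Points are libraries and black marks the mean and SD (n = 10 per age), and the ages do not overlap for miR-3969, miR-374b-5p, miR-532-5p and miR-140-3p.

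Among the rises, miR-3969 stood far from the rest. At 15 months it had 0.481 CPM in the lowest library, 4.95 in the median and 7.16 in the highest, and at 16.5 months 181.4, 230 and 330 CPM. The libraries of the 2 ages did not overlap, which held for 5 of the 103 rows (4.85%), the others being miR-374b-5p, miR-374c-5p, miR-532-5p and miR-140-3p. Counts were low at 15 months, at 1 to 22 per library with a median of 14.5, against 195 to 3258 at 16.5 months. The log2 fold change was 5.70 ± 0.23 (SE) in a table that the filter let it enter only through other ages, and 5.84 with no filter on reads (edgeR, adjusted p = 3.5e-27 over 835 rows). Its hairpin lies at chr5:87595902-87595993 on the minus strand (GRCm38), outside annotated genes.

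miR-374b-5p and miR-374c-5p come from 2 hairpins annotated on opposite strands of the same place, chrX:103573060-103573154 (minus) and chrX:103573085-103573133 (plus), within an intron of Ftx, a long noncoding RNA of the X-inactivation centre. Their common count gave 5.37, 10.9 and 14.3 CPM at 15 months (lowest, median, highest) and 15.6, 19.8 and 26.5 CPM at 16.5 months. Every library of 16.5 months was above every library of 15 months. Between the ages its log2 fold change was 0.92 ± 0.13 (SE; edgeR, adjusted p = 1.3e-05), with a median of 29.5 counts at the younger age, and 1.05 with no filter on reads (adjusted p = 0.000251). miR-421-3p, whose hairpin lies 63 bases from that of miR-374b, at chrX:103572921-103572996 on the minus strand (GENCODE M21), rose too. It had 131, 151.9 and 191 CPM at 15 months and 175, 202 and 231 CPM at 16.5 months, and 8 of the 10 older libraries were above the younger range. Between the ages the log2 fold change was 0.38 ± 0.08 (SE; edgeR, adjusted p = 0.00218).

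let-7d-5p belongs to the let-7 family, which is known for promoting differentiation and for restraining growth genes. It had 102, 146.3 and 248 CPM at 15 months and 186, 252 and 551 CPM at 16.5 months. All 10 older libraries were above the 15-month mean, and 6 were above its highest value. The fitted log2 fold change was 0.87 ± 0.21 (SE; edgeR, adjusted p = 0.00404). Of the 7 let-7 members tested with this seed, 1 was called, a share close to the 13.6% of rises among all tested, and the median was 0.43 against -0.03 over all 103. The others included let-7a-5p at 0.43 (adjusted p = 0.0615) and let-7c-5p at 0.44 (adjusted p = 0.0667), while let-7i-5p was at -0.20 (adjusted p = 0.0989, edgeR). The let-7d hairpin lies at chr13:48536012-48536114 on the minus strand, in an exon of the long noncoding RNA 6720427I07Rik, in 1 cluster with let-7f and let-7a.

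The 2 members of the miR-146 family, which are induced by inflammatory signalling and restrain it, both rose. miR-146a-5p (hairpin at chr11:43374397-43374461, minus strand) had 17.2, 40.9 and 67.3 CPM at 15 months and 48.0, 69.6 and 157 CPM at 16.5 months. The ranges overlapped, with all 10 older libraries above the 15-month mean and 6 above its highest value. Its log2 fold change was 1.01 ± 0.29 (SE; edgeR, adjusted p = 0.0128). miR-146b-5p (chr19:46342762-46342870, plus strand, in an intron of Mfsd13a) had 7.16, 19.3 and 40.7 CPM at 15 months and 16.5, 34.6 and 87.3 CPM at 16.5 months. Here 9 of 10 older libraries were above the 15-month mean. Its log2 fold change was 0.83 ± 0.30 (SE; edgeR, adjusted p = 0.0472), a call that remained in only 6 of the 20 fits that each left out 1 library.

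miR-191-5p, the third most abundant microRNA and often used as a reference in blood, rose by a smaller amount. It made up 0.941% ± 0.194 of counts at 15 months and 2.25% ± 0.732 at 16.5 months (SD, n = 10 each). In CPM it had 9040, 10717 and 22455 at 15 months and 14992, 16825 and 19795 at 16.5 months. Library 3 of 15 months was above all others, and the remaining libraries of that age were below every library of 16.5 months. Library 3 had a count of 20922, where the lowest at that age was 20508, and the smallest TMM factor of the 20 libraries, 0.283. The levels gave a log2 fold change of 0.54 ± 0.14 (SE; edgeR, adjusted p = 0.00535). Of the 5 reference microRNAs examined, miR-191-5p was the one called, and the others included miR-423-5p at 0.30 (adjusted p = 0.769) and miR-484 at -0.19 (adjusted p = 0.326, edgeR).

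miR-342-3p, which lymphocytes are rich in, had 23.3, 31.1 and 43.0 CPM at 15 months and 22.0, 53.9 and 85.0 CPM at 16.5 months. Of the 10 older libraries, 7 were above the younger range and 1 was below it. Between the ages its log2 fold change was 0.66 ± 0.19 (SE; edgeR, adjusted p = 0.0135). miR-150-5p, the most abundant of the lymphoid list, had a nearly equal log2 fold change of 0.67 with a wider error (SE 0.33, adjusted p = 0.139, edgeR) and was not called. Its medians were 446 and 494 CPM.

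The remaining rises were of less than 0.6 log2. miR-181b-5p had 18.7, 23.3 and 49.4 CPM at 15 months and 34.5, 36.6 and 52.7 CPM at 16.5 months. All 10 older libraries were above the 15-month mean (log2 fold change 0.56, SE 0.16, adjusted p = 0.0114, edgeR). The other 3 members of its family that were tested were not called, with miR-181a-5p at 0.23 (SE 0.14, adjusted p = 0.205). miR-23a-3p (0.46), miR-130b-3p (0.43), miR-186-5p (0.34) and miR-26a-5p (0.25) were called as well, with adjusted p between 0.00404 and 0.0407 (edgeR). The calls of miR-130b-3p, miR-186-5p and miR-26a-5p were lost in 13, 8 and 5 of the 20 fits that left out 1 library, and that of miR-130b-3p also with the leading number as a block (edgeR, adjusted p = 0.0655).

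Among the falls, miR-532-5p had the largest log2 fold change. It had 26.8, 34.5 and 47.2 CPM at 15 months and 9.10, 15.0 and 25.0 CPM at 16.5 months. Every older library was below every younger one. Between the ages the log2 fold change was -1.14 ± 0.16 (SE; edgeR, adjusted p = 1.3e-05), and with library totals -0.51 (adjusted p = 0.228). miR-501-3p, of the same cluster in Clcn5 on the X chromosome, was at -0.06 (adjusted p = 0.782, edgeR) and was not called.

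miR-140-3p, best known from cartilage and encoded at chr8:107551244-107551313 (plus strand) within Wwp2, is among the abundant microRNAs of these libraries. At 15 months it had 1886, 2500 and 2961 CPM, and at 16.5 months 1059, 1284 and 1836 CPM. The ages did not overlap. The fitted log2 fold change was -0.80 ± 0.11 (SE; edgeR, adjusted p = 1.3e-05), and with library totals -0.18 (adjusted p = 0.625).

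Both tested members of the miR-148 family, which includes regulators of lipid handling and of B cells, fell. miR-148b-3p (chr15:103285125-103285221, plus strand, in an intron of Copz1) had 169, 250 and 428 CPM at 15 months and 109, 132 and 240 CPM at 16.5 months. The ranges overlapped, with 8 of 10 older libraries below the lowest younger one. Its log2 fold change was -1.01 ± 0.18 (SE; edgeR, adjusted p = 0.000324). miR-148a-3p (chr6:51269812-51269910, minus strand) had 61.2, 122 and 297 CPM at 15 months and 57.9, 81.4 and 135 CPM at 16.5 months. These ranges overlapped widely, with 8 of 10 older libraries below the 15-month mean. Its log2 fold change was -0.68 ± 0.24 (SE; edgeR, adjusted p = 0.0407), a call lost in 9 of the 20 fits that left out 1 library.

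miR-192-5p, abundant in liver, kidney and gut, had 914, 1061 and 1751 CPM at 15 months and 526, 669 and 1046 CPM at 16.5 months. Of the older libraries, 7 were below the younger range and 10 below the 15-month mean. This gave a log2 fold change of -0.75 ± 0.17 (SE; edgeR, adjusted p = 0.00326). miR-194-5p, which has 1 of its 2 hairpins beside that of miR-192 at chr19:6264643-6264728, was at -0.32 (SE 0.17, adjusted p = 0.166, edgeR). miR-215-5p, which shares the seed of miR-192-5p, was at 0.37 (SE 0.21, adjusted p = 0.197, edgeR). Neither was called. miR-122-5p, the defining liver microRNA, had a count of 0 in 19 of the 20 libraries, where 3 counts, the limit that a count of 0 allows, correspond to 0.376 CPM of the total in the deepest library and 2.34 in the shallowest.

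In the miR-30 family 2 of the 5 tested 5p members fell, where 14.6% of all tested microRNAs did. miR-30b-5p had 90.2, 159 and 225 CPM at 15 months and 64.4, 105.2 and 124 CPM at 16.5 months. All 10 older libraries were below the 15-month mean (log2 fold change -0.65, SE 0.17, adjusted p = 0.00872, edgeR). Both arms of the miR-30a hairpin (chr1:23272269-23272339, plus strand) were called. The 3p arm had 23.9, 30.5 and 40.1 CPM at 15 months and 16.1, 20.7 and 29.9 CPM at 16.5 months, with a log2 fold change of -0.51 ± 0.12 (SE; edgeR, adjusted p = 0.0048). The 5p arm, with a median of 1675 CPM at 15 months, was at -0.27 (SE 0.10, adjusted p = 0.0493, edgeR), a call that remained in 8 of the 20 fits that left out 1 library and was lost with the leading number as a block (adjusted p = 0.0602).

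The remaining falls were miR-10b-5p (-0.52), miR-378c (-0.47), miR-99b-5p (-0.46), miR-351-5p (-0.45), miR-107-3p (-0.39), miR-106b-3p (-0.31) and miR-378a-3p (-0.26). Their adjusted p lay between 0.00326 and 0.0485 (edgeR). miR-10b-5p lies in the Hoxd cluster, miR-107-3p in an intron of the pantothenate kinase gene Pank1 and miR-106b-3p in an intron of the replication gene Mcm7. miR-10b-5p, miR-99b-5p, miR-351-5p and miR-378a-3p lost their call in 8, 6, 11 and 7 of the 20 fits that left out 1 library, and miR-351-5p also with the leading number as a block (edgeR, adjusted p = 0.127). In 3 seed pairs the called member fell while its partner was not called and positive. These were miR-10b-5p with miR-10a-5p (0.30, adjusted p = 0.137), miR-99b-5p with miR-99a-5p (0.37, adjusted p = 0.204) and miR-192-5p with miR-215-5p (above). For miR-107-3p with miR-103-3p (-0.13, adjusted p = 0.297) and miR-30a-3p with miR-30e-3p (-0.18, adjusted p = 0.365, edgeR) the partner was not called and negative. The difference within a pair was not tested.

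Among the tested microRNAs with a RefSeq sequence, 15 seeds were shared by 2 or more. Of these, 2 had every member with a sequence called, the seed GAGAACU of miR-146 and the seed CAGUGCA of miR-148. In the remainder at most 1 member with a sequence was called. Of the called microRNAs, 25 of 29 matched a RefSeq sequence. The others, miR-30b-5p, miR-378a-3p, miR-421-3p and miR-532-5p, entered no seed count. The falls of miR-30b-5p beside miR-30a-5p and of miR-378a-3p beside miR-378c are therefore missing from it. The median GC content was 40.9% in the 13 rises and 48.9% in the 12 falls with a sequence, and 45.6% over the 90 microRNAs with one.

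**Figure D3:**
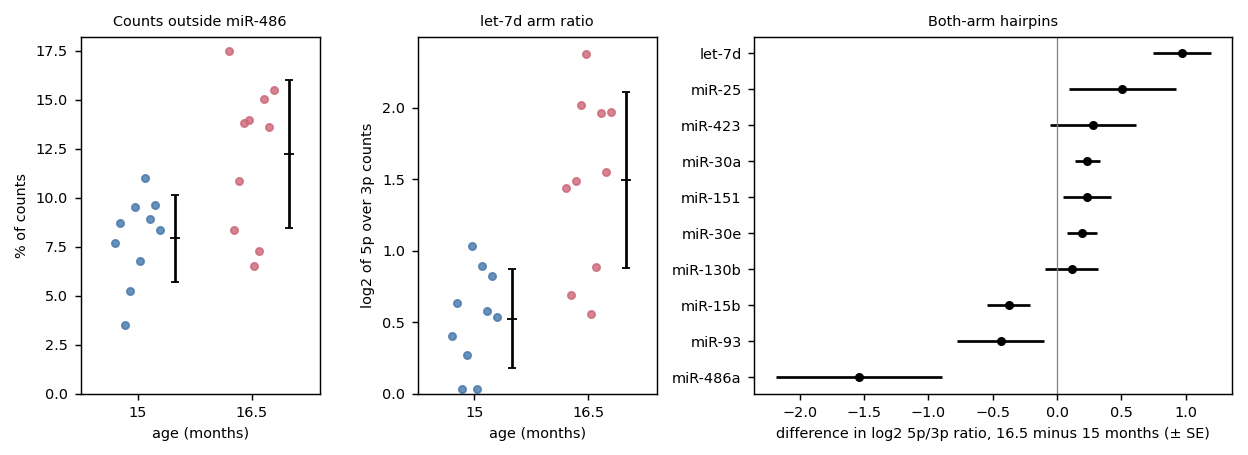
Left, the percentage of counts outside miR-486 per library, and centre, the log2 ratio of let-7d-5p to let-7d-3p counts per library, at 15 and 16.5 months (points are libraries, black marks the mean and SD, n = 10). Right, the difference in log2 5p to 3p ratio at 16.5 minus 15 months with its SE for 10 hairpins, in which let-7d has the largest rise, 0.97.

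The ratio of the 2 arms of 1 hairpin within a library does not depend on the scaling. Both arms passed the filter for 10 hairpins, and let-7d was the 1 whose ratio differed. let-7d-5p over let-7d-3p had a log2 ratio of 0.03 in the lowest, 0.56 in the median and 1.04 in the highest library at 15 months, and 0.56, 1.52 and 2.38 at 16.5 months. The ranges overlapped, and all 10 older libraries were above the 15-month mean. The mean rose from 0.52 ± 0.34 to 1.49 ± 0.62 (SD, n = 10 each), by 0.97 (SE 0.22, two-sided permutation test, adjusted p = 0.005 over 10 hairpins). The 3p arm alone was at 0.08 log2 (SE 0.39, adjusted p = 0.851, edgeR). The difference remained in all 20 fits that left out 1 library. Within each age the let-7d ratio tended to be lower in libraries with a small share of counts outside miR-486. At 15 months it was 0.03 in the library with the lowest share (3.48%) and 0.89 in that with the highest (11.0%). At 16.5 months these ratios were 0.56 (6.49%) and 1.44 (17.5%). That share also differed between the ages, and a change of the ratio apart from it was not tested. For miR-486a the log2 ratio fell by 1.54 (SE 0.65), for miR-15b by 0.38 (SE 0.17) and for miR-30a it was 0.23 higher (SE 0.10), with adjusted p of 0.0861 each (permutation test).

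With a lower filter of more than 10 reads, 7 of 39 hairpins had a different ratio (permutation test). These were miR-148b, miR-1981, let-7d, miR-340, miR-15a, miR-378a and miR-148a. The log2 5p to 3p ratio was 1.004 higher for miR-148b (adjusted p = 0.00156) and 0.94 higher for miR-148a (adjusted p = 0.0403), so that both miR-148 hairpins moved towards the 5p arm. Their rarer 5p arms had as few as 9 and 0 counts in a library. miR-532, whose 5p arm fell most, had a ratio lower by 0.80 in the same test with an adjusted p of 0.0702.

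Of the 7 microRNAs that the study selected, 2 rose (miR-146a-5p and miR-130b-3p), 3 fell (miR-192-5p, miR-148a-3p and miR-30a-3p) and 2 were not called, beside 13.6% higher and 14.6% lower over all 103. let-7b-5p had 11.9, 17.0 and 34.3 CPM at 15 months and 14.3, 19.2 and 59.0 CPM at 16.5 months, which overlapped widely (log2 fold change 0.50, SE 0.28, adjusted p = 0.19, edgeR). miR-181a-5p had 133, 153 and 280 CPM and then 138, 189 and 261 CPM, with 8 of 10 older libraries above the 15-month mean. The list came from the same experiment and its counts are not independent evidence.

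Marker lists of blood cells were followed beside these results. Of the 7 red-cell microRNAs tested, 0 were called by edgeR, 0 had an unadjusted p under 0.05 and 0 were called by DESeq2, where 28.2% of all 103 were called by edgeR, and their median log2 fold change was -0.06. miR-92a-3p was at -0.09 (adjusted p = 0.819), miR-25-3p at -0.06 (adjusted p = 0.709), miR-16-5p at 0.09 (adjusted p = 0.696) and miR-451a at -0.53 (adjusted p = 0.221). miR-486a-3p was at 0.73 (adjusted p = 0.501) and miR-144-5p at 0.26 (adjusted p = 0.225, edgeR). Of the 7, 3 were positive and 4 negative. As a share of counts outside miR-486, the 6 other red-cell microRNAs summed to 43.8% to 47.5% at 15 months (median 45.8%) and 38.3% to 48.1% at 16.5 months (median 39.7%). The 3 myeloid microRNAs tested likewise gave 0 in each of these counts, and the list of 6 summed to medians of 5.31% and 4.38%, within ranges of 2.73% to 7.02% and 2.55% to 6.15%.

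The 5 lymphoid microRNAs summed to 0.220% to 0.664% of counts outside miR-486 at 15 months and 0.223% to 1.24% at 16.5 months, and 1 of the 2 tested, miR-342-3p, was called higher, as were 13.6% of all tested. The liver list of 4, nearly all of it miR-192-5p, summed to 0.780% to 1.99% and 0.504% to 1.22%. The 4 platelet and endothelial microRNAs summed to medians of 0.0574% and 0.0524%. The muscle microRNAs miR-1a-3p and miR-206-3p and the neuronal miR-124-3p had a count of 0 in all 20 libraries. Not all members of the muscle and brain lists were absent. The muscle miR-133a-3p had median counts of 12 at 15 months and 18 at 16.5 months. miR-128-3p of the brain list had median counts of 723 and 1773.5. The brain list of 6 summed to medians of 0.281% and 0.265% of counts outside miR-486. The part of these lists in the changes was not tested, and in whole blood a shift in cell numbers and a change within cells cannot be told apart.

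**Figure D4:**
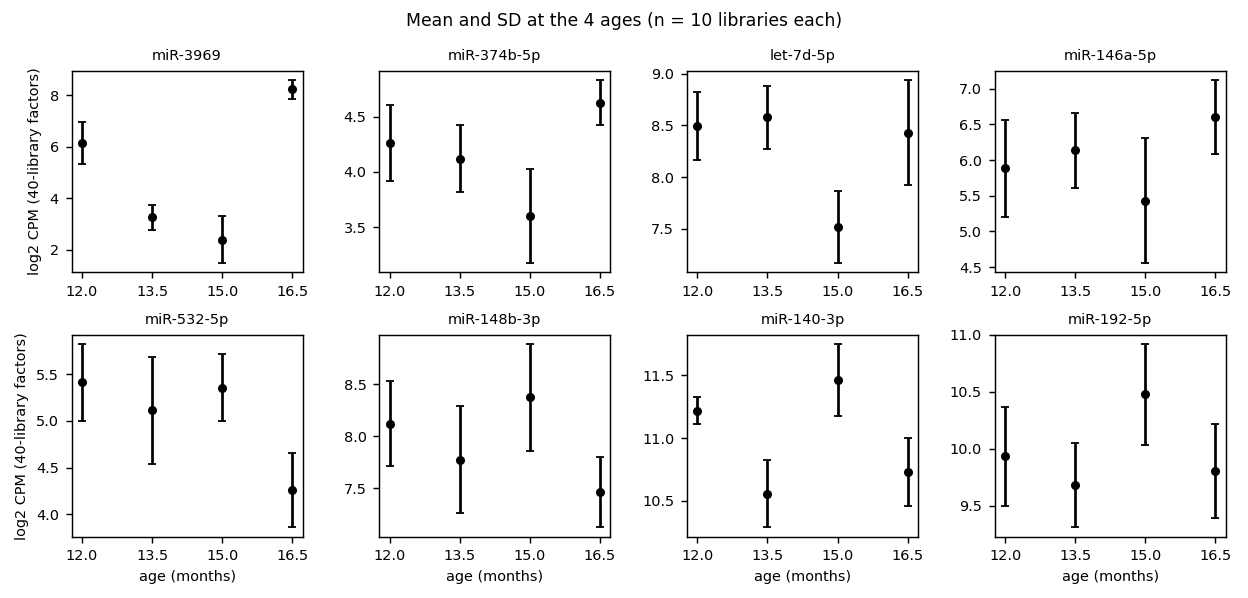
Mean and SD (n = 10 libraries per age) of the log2 CPM of 8 microRNAs at 12, 13.5, 15 and 16.5 months, scaled over the 40 libraries (vertical axis, a separate scale per panel). The 15-month mean is the lowest of the 4 ages in the 4 upper panels, and the 16.5-month mean is the lowest for miR-532-5p and miR-148b-3p.

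Set beside the 2 younger ages, with factors over the 40 libraries, the 15-month mean was the lowest of the 4 for 11 of the 14 rises and the 16.5-month mean the highest for 11. Of the 15 falls, 9 had their highest mean at 15 months and 8 their lowest at 16.5 months. Over all 103 microRNAs the corresponding counts were 30, 30, 23 and 22. The calls rest on 2 of these ages, so the counts describe and do not test a course. In log2 CPM miR-3969 averaged 6.14 ± 0.81, 3.27 ± 0.49, 2.40 ± 0.91 and 8.23 ± 0.37 over the 4 ages (SD). Its level was thus high at 12 and 16.5 months, whose column names share a form, and low at 13.5 and 15 months, whose names share the other, and age and library series cannot be told apart for it. let-7d-5p averaged 8.49 ± 0.33, 8.58 ± 0.31, 7.52 ± 0.35 and 8.43 ± 0.51 log2 CPM from the youngest to the oldest age (SD, n = 10 each), so that the 16.5-month level was near those of 12 and 13.5 months. miR-140-3p averaged 11.22 ± 0.11, 10.56 ± 0.27, 11.46 ± 0.29 and 10.73 ± 0.27, and both its highest and its lowest mean lay before 16.5 months. miR-532-5p averaged 5.41 ± 0.41, 5.11 ± 0.57, 5.36 ± 0.36 and 4.26 ± 0.40, and was low at the oldest age alone. miR-374b-5p averaged 4.26 ± 0.34, 4.12 ± 0.30, 3.60 ± 0.43 and 4.63 ± 0.21, with its extremes at the 2 ages compared.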

How the data were processed

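Total blood RNA of mice was prepared with the TruSeq Small RNA kit and sequenced as single-end reads. The authors trimmed adapters, checked reads with FastQC 0.11.5, mapped them to mm10 with the miRDeep2 tools, matched them to miRBase precursors without mismatches, and deposited the raw count of each miRBase mature microRNA, summed over genomic locations. A second deposited table is a normalized signal, the counts divided by a size factor. It entered only 1 alternative, as log2 of signal plus 1. Amplified reads without molecular identifiers are not independent molecules, and the limit given for a count of 0 covers counting error only. The SDs and SEs also hold the spread between libraries.

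The members and lists were chosen with earlier results of these data known. A row needed over 100 reads in 20 of 40 libraries and was tested between 15 and 16.5 months with edgeR 4.0.16 (R 4.3.3, TMM factors, glmQLFit and glmQLFTest, Benjamini-Hochberg adjustment, threshold 0.05). Levels in log2 CPM use a prior count of 2. Each SE was obtained by dividing the size of the log2 fold change by the root of its F statistic. P-values measure the spread between libraries, taken as independent although mice were bled repeatedly. Arm ratios (pseudocount 0.5) and shares were compared by two-sided permutation tests with 100000 resamples (Python 3.11.15). The text names the 10 largest rises and falls among the calls, the 5 smallest p, the 5 highest shares, the 7 microRNAs of the study, hairpins whose arm ratio differed, and up to 4 members per list. The remaining called microRNAs, miR-486a-3p, miR-144-5p and the hairpins of the lower filter were added after their values were seen. The fit was tested on counts simulated with as many rises as falls. TMM scaling holds there by construction, so that test does not cover the dependence on scaling. Duplicate libraries were looked for within each age and none was found (lowest chi-square over its degrees of freedom 19.6 in 45 pairs of 15 months). Overlaps with genes are from GENCODE M21. Alternatives used DESeq2 1.42.0, limma 3.58.1 and factors of unwanted variation.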

Additional observations from a re-analysis of the deposited data

Results flagged for a closer look

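Within the 10 libraries of an age, the highest or lowest library was checked for a gap to its neighbour wide enough, as a fraction of the whole range, to pass Dixon's critical value at the 95% level. This was done for the named microRNAs, the share outside miR-486 and the let-7d ratio, 74 checks in all, of which chance passes about 1 in 20. Of these, 7 passed. At 15 months, library 3 was the highest for miR-181a-5p (gap 0.682 of the range), miR-191-5p (0.667) and miR-378c (0.526). That library had the lowest share of counts outside miR-486, 3.48%, and the smallest TMM factor, 0.283. Its count of miR-181a-5p, 261, was the lowest of that age. Library 6 of 15 months was the lowest for miR-3969 (0.759), on a count of 1. At 16.5 months, library 7 was the highest for miR-130b-3p (0.493), library 1 the highest for miR-26a-5p (0.508) and library 6 the lowest for miR-30b-5p (0.505). Library 7 of 16.5 months is the shallowest of the 20.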

How the results depend on the processing

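The 29 calls (14 higher, 15 lower) became 46 (45 and 1) with library totals alone, 56 (27 and 29) with 1 factor of unwanted variation and 59 (29 and 30) with 2, and 31 (23 and 8) with all 4 ages in the fit. A filter of more than 1 read gave 36 calls (23 and 13) of 343 tested, 16 of them among the 29. No filter gave 28 (21 and 7) of 835 tested, 15 of them among the 29. The remaining settings gave 23 to 37 calls, among them DESeq2 with 36. With library totals, the log2 fold change of miR-10b-5p became 0.11, miR-30a-3p 0.074, miR-378c 0.18, miR-99b-5p 0.29 and miR-92a-3p 0.46. Over the 18 alternatives, 419 of 480 values of the named microRNAs kept their side of the threshold, and also their direction wherever they were called. Values called neither in the main fit nor in the alternative are among the 419 even where their direction turned. With library totals, miR-25-3p did so, from -0.06 to 0.56. The cause of the shifts was not tested. Leaving out 1 library at a time gave 20 to 32 calls, 10 to 19 higher and 9 to 18 lower (fewest without library 9 of 16.5 months), and 19 of the 29 were called in all 20 fits. Hairpins with a different arm ratio were 7 with the lower filter, 3 without the 2 libraries under 6% outside miR-486, and 1 to 3 when 1 library was left out (3 without library 4 and 2 without library 9 of 15 months). The share outside miR-486 kept its side of the threshold, with differences of 3.73 to 4.96 percentage points when 1 library was left out.

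The column names start with a number that recurs at both ages. As a replicate block, chosen after seeing the data as were the omissions of libraries, it gave 27 calls (13 higher, 14 lower) and 2 hairpins, and 26 of the 29 were kept. Deviations of same-numbered libraries correlated from -0.80 to 0.85 (median 0.26), over 0.1 in 6 of 10 pairs, and 2 of 10 correlated best with their own number. Between libraries of different numbers the mean correlation was 0.0044. Such correlations cannot decide whether same-numbered libraries came from 1 animal. The number was not taken as a pairing because no source says that it names the animal. The replicate numbers of the labels are not in the columns, and a block on them was not run. Without the 3 libraries of 15 months whose names carry another letter than the rest of that age, 25 were called, 20 of them among the 29. The low counts of miR-3969 and miR-374b-5p at 15 months limit their precision.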
